A study of Homo sapiens with 60 samples.

Results

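Cultures of A549, a human cell line from a lung adenocarcinoma, were compared after 24 h with 100 µg/mL of a hot-water extract of Aucklandiae Radix (Aucklandiae 100, 3 libraries) and after 24 h with the dimethyl sulfoxide vehicle (Vehicle, 3 libraries). These 6 libraries were chosen by their labels out of 60, and all genes were considered. The rest of the series holds wortmannin at 10 µM and 6 herbal water extracts at 20, 100 and 500 µg/mL, with 3 libraries in each of its 20 groups. The labels give 0.1% dimethyl sulfoxide for Vehicle whereas the design text gives 2%, and no solvent level is given for the extract groups. The design text also states lower doses for extracts with strong toxicity, while the labels give 20, 100 and 500 µg/mL, which are used here. Nothing in the sources says that replicates were separate cultures, so p-values measure the spread between these libraries only. The first part of the library name is A1 for Vehicle and 4 for both Aucklandiae and Polygalae (the extract of Polygalae Radix), so a difference between library sets and an effect of the extract cannot be told apart in a comparison with Vehicle.

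Aucklandiae Radix is the dried root of Aucklandia lappa, or costus root, which is used in East Asian medicine. It is best known for the sesquiterpene lactones costunolide and dehydrocostus lactone, whose reactive lactone groups can bind thiols such as glutathione. A thiol-reactive compound typically raises genes of the transcription factor NRF2, among them HMOX1, NQO1 and GCLM. The content of the extract used here is not given in the sources used here. A549 cells carry a defective KEAP1, the protein that restrains NRF2, so their NRF2 genes are high without any treatment.

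Libraries held 24.9 to 28.4 M expected counts in Vehicle and 21.6 to 27.7 M in Aucklandiae 100. The 8 epithelial markers of A549 cells (such as KRT8, KRT18 and AKR1C1) were all detected, and summed to 17770 to 18250 CPM (counts scaled to library depth) in Vehicle and 18170 to 18440 CPM in Aucklandiae 100, which overlapped. Markers of other cells summed to less. In Vehicle and Aucklandiae 100, 6 fibroblast markers summed to 34.02 to 34.27 and 33.98 to 36.36 CPM. The sums were 0.147 to 0.321 and 0.0451 to 0.0727 CPM for 4 endothelial markers, and 14.28 to 15.1 and 11.63 to 12.35 CPM for 6 blood markers, both without overlap. All 4 endothelial markers were under 1 CPM in all 6 libraries, so their sums lay near the floor. So were 4 of the 6 blood markers, and the blood sum came mostly from CD68 and CD14 (2.394 to 2.662 CPM). DCN, CD3E and HBB were at 0. Over the 6 libraries COL1A1 was at 27.49 to 29.35 CPM and CD68 at 8.881 to 12.31 CPM, above the epithelial marker EPCAM at 3.683 to 5.703 CPM. Counts from mitochondrial messenger RNA made up 8.34 to 8.71% of the Vehicle libraries and 7.57 to 7.91% of the Aucklandiae 100 libraries, without overlap. The mean log2 level of GC-rich genes relative to GC-poor genes also differed without overlap, at −0.0974 to −0.0488 in Vehicle and −0.0388 to 0.0411 in Aucklandiae 100. In bulk RNA, fewer cells of a type and less RNA per cell cannot be told apart.

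Most differences between Aucklandiae 100 and Vehicle were small. Of 17368 genes tested, 355 (2.04%) passed an adjusted p of 0.05 in edgeR's quasi-likelihood test, and 187 of them rose (1.08%) and 168 fell (0.967%). The median log2 fold change was 0.22 among the rises and −0.18 among the falls. Only 5 rises and 11 falls reached 1.5-fold (0.0288% and 0.0633% of genes tested), and 3 and 8 reached 2-fold (0.0173% and 0.0461%). In 350 of the 355 genes (2.02% of genes tested) the 3 libraries of one group all lay above the 3 of the other, where 23.3% of all genes tested did so. Protein-coding genes made up 183 of the rises and 148 of the falls. The count moved with single libraries and was 102 without Aucklandiae 100 replicate 1, 114 without Vehicle replicate 1, 97 without Vehicle replicate 2, 212 and 210 without Aucklandiae 100 replicates 2 and 3, and 253 without Vehicle replicate 3. For Aucklandiae 100 versus Vehicle the count was higher, at 1016, with only the 6 libraries in the fit, and at 700 without Polygalae 20 replicate 1, a library of neither group that was left out after seeing the data. With a correction for GC content and length, 161 genes rose and 246 fell, so 39.6% of the calls were rises compared with 52.7% without it.

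**Figure D1:**
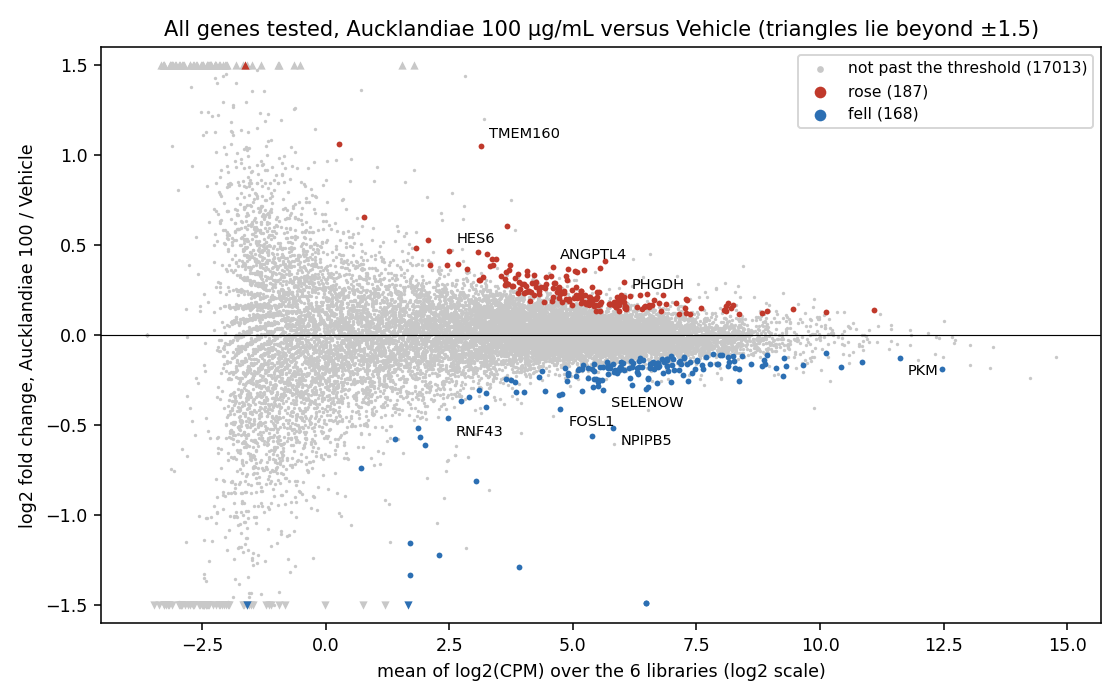
Each point is 1 of the 17368 genes tested, with the mean of its log2(CPM) over the 6 libraries on the x axis and the log2 fold change of Aucklandiae 100 over Vehicle on the y axis. The 187 red and 168 blue genes passed an adjusted p of 0.05, and most lie within 0.5 of 0. Triangles at the edges are genes beyond 1.5 in either direction.

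Most of the 11 genes past 2-fold were noncoding RNAs or pseudogenes. TUBA1B-AS1 (ENSG00000258017; chromosome 12, 49127782 to 49147869), which is antisense to the tubulin gene TUBA1B, had 73.8, 19.5 and 63.2 CPM in Vehicle and 0, 0.691 and 0.0903 CPM in Aucklandiae 100. ENSG00000280614 and ENSG00000281181, lincRNA entries in a repeated stretch of chromosome 21, carried identical values of 160, 140 and 156 CPM in Vehicle and 36.5, 63.7 and 61.2 CPM in Aucklandiae 100. The strand setting of the count step is not given in the sources used here, and reads that fit several copies are divided between them, so these values cannot be assigned to 1 transcript. The pseudogene RPS26P19 and the small nucleolar RNA gene SNORA59B were among the other falls past 2-fold.

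The 12 largest rises ranged from 0.39 to 1.05 on the log2 scale. Only protein-coding genes with at least 5 CPM and no overlap between the groups were eligible, so that lack of overlap is not a finding. TMEM160 (ENSG00000130748; chromosome 19, 47045907 to 47048630), which encodes a small transmembrane protein, had 4.45, 6.32 and 7.70 CPM in Vehicle and 14.5, 12.5 and 11.6 CPM in Aucklandiae 100. Its log2 fold change was 1.05 ± 0.247 (SE; adjusted p = 0.015, edgeR). The Vehicle libraries themselves ranged widely, and the call was lost without Aucklandiae 100 replicate 1, Vehicle replicate 1 or Vehicle replicate 2 (adjusted p up to 0.12).

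PDF (ENSG00000258429; chromosome 16, 69328621 to 69330595), the mitochondrial enzyme that removes the formyl group from new peptides, had 10.1, 9.50 and 11.3 CPM in Vehicle and 16.5, 13.9 and 16.9 CPM in Aucklandiae 100 (0.61 ± 0.119, adjusted p = 0.0025). It overlaps COG8 and ENSG00000272617 on the same strand. ENSG00000272617 fell, from 4.69, 6.43 and 5.50 CPM to 0.737, 3.02 and 2.71 CPM (−1.33, adjusted p = 0.017), and reads that fit both entries cannot be assigned to 1 of them with certainty. MIEF2, which recruits the fission factor DRP1 to mitochondria, and ANTKMT, which methylates the adenine nucleotide carrier, rose by 0.40 ± 0.098 and 0.39 ± 0.087 on the log2 scale, and passed in 1 and 4 of the 6 fits that left out 1 of the 6 libraries.

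LMBR1L (ENSG00000139636; chromosome 12, 49096551 to 49110900), which encodes a receptor-like membrane protein, had 9.18, 8.82 and 10.2 CPM in Vehicle and 12.5, 12.2 and 13.2 CPM in Aucklandiae 100. It had the smallest adjusted p of these rises, at 8.6e-04 (log2 0.42 ± 0.076), and passed in all 6 fits that left out 1 of the 6 libraries. ANAPC11, the RING subunit of the anaphase-promoting complex, went from 42.9 to 44.5 CPM in Vehicle to 57.2 to 58.5 CPM (0.41 ± 0.099, adjusted p = 0.017), and passed only without Aucklandiae 100 replicate 3 or Vehicle replicate 3. Further rises were HES6, a helix-loop-helix factor (0.47), C15orf61 (0.46), CYB561D2, a transmembrane ferrireductase (0.45), the sulfotransferase gene CHST7 (0.39), TMEM187 (0.39) and THTPA, which hydrolyses thiamine triphosphate (0.39). Among the 24 largest rises and falls together, 12 overlap another gene that was tested, 8 of them on the same strand.

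The 12 largest falls, chosen by the same rule and so also without overlap between the groups, ranged from −0.51 to −0.30 on the log2 scale. NPIPB5 (ENSG00000243716; chromosome 16, 22479121 to 22536521), of the nuclear pore interacting protein family, had 63.5, 68.0 and 69.2 CPM in Vehicle and 50.7, 43.5 and 46.9 CPM in Aucklandiae 100 (−0.51 ± 0.068, adjusted p = 2.5e-05). Its near-identical paralogs share reads with it, so its own level is uncertain. FOSL1 (ENSG00000175592; chromosome 11, 65892049 to 65900573), the AP-1 subunit FRA-1, had 31.8, 27.7 and 33.2 CPM in Vehicle and 24.0, 22.2 and 23.8 CPM in Aucklandiae 100. FOSL1 fell by 0.41 ± 0.078 (adjusted p = 0.0019), and passed in all 6 fits that left out a library.

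RNF43, a ubiquitin ligase that removes Wnt receptors from the cell surface, fell by 0.46 ± 0.133 on the log2 scale (adjusted p = 0.049), but passed in 1 of the 6 fits that left out a library. RUNX1, a transcription factor of blood and epithelia, had 15.7, 15.5 and 16.6 CPM in Vehicle and 11.75, 12.03 and 14.72 CPM in Aucklandiae 100 (−0.32 ± 0.074, adjusted p = 0.012), and missed the threshold without Aucklandiae 100 replicate 1 or 2 or Vehicle replicate 3 (adjusted p up to 0.11). FAM193A was the tightest of these falls, from 30.4 to 31.5 CPM in Vehicle to 24.4 to 24.7 CPM (−0.33 ± 0.060, adjusted p = 0.0011). The others were the cadherin gene CDH17 (−0.40), CCBE1, a secreted factor of lymphatic growth (−0.34), the orphan nuclear receptor gene NR6A1 (−0.32), CEACAM19 (−0.31), the selenoprotein gene SELENOW (−0.30), the zinc finger gene ZIC5 (−0.30) and the ribonuclease gene RNASEK (−0.30). Of the 24 genes, PDF, LMBR1L, NPIPB5, FOSL1, FAM193A and SELENOW passed in all 6 fits that left out a library, and 12 passed in at most 2. HES6, ANTKMT and CCBE1 no longer passed with the GC and length correction (adjusted p = 0.11, 0.05 and 0.053).

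**Figure D2:**
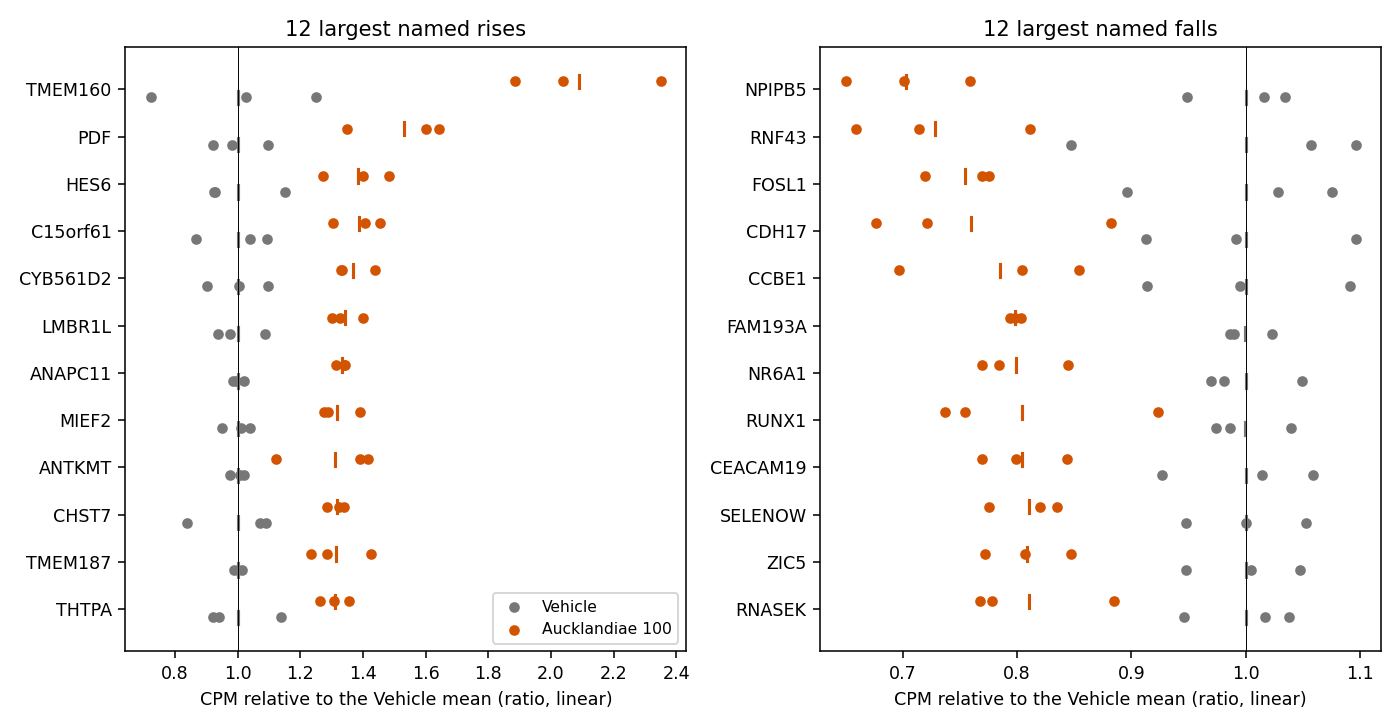
CPM of each library divided by the Vehicle mean of the gene, for the 12 largest named rises (left) and falls (right), on linear axes. Points are libraries and short bars are means of 3. Grey Vehicle and orange Aucklandiae 100 points do not overlap, because the 24 genes were chosen by that rule. TMEM160 has the widest spread in Vehicle, 4.45 to 7.70 CPM.

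Selenoproteins changed in both directions. These proteins carry selenocysteine, which is built in at a UGA codon, and most are enzymes that handle peroxides, thiols or hormones. Of 20 selenoprotein genes tested, 3 fell and 2 rose, where 0.967% and 1.08% of all genes tested did so, and the median of the 20 was −0.06 against 0.00 for all genes. GPX1 (ENSG00000233276; chromosome 3, 49357171 to 49358600), the cytosolic glutathione peroxidase, had 79.9, 81.3 and 80.5 CPM in Vehicle and 66.01, 67.8 and 65.6 CPM in Aucklandiae 100. The groups did not overlap, and GPX1 fell by 0.28 ± 0.071 (adjusted p = 0.028). Without any 1 of the 6 libraries it missed the threshold, with adjusted p from 0.063 to 0.11.

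SELENOW (ENSG00000178980; chromosome 19, 47778572 to 47784686), a small redox protein, had 57.2, 54.4 and 51.5 CPM in Vehicle and 42.1, 44.6 and 45.4 CPM in Aucklandiae 100. It fell by 0.30 ± 0.062 (adjusted p = 0.0036), and in all 6 fits that left out a library. DIO2, the deiodinase that activates thyroid hormone, fell by 0.14 ± 0.039 (adjusted p = 0.048) and was named after its value was seen. The rises were those of SELENOO, a mitochondrial pseudokinase (12.5 to 13.0 CPM in Vehicle, 15.4 to 16.6 CPM in Aucklandiae 100, 0.32 ± 0.075, lost without replicate 1 of either group), and of SEPHS2, which makes the selenophosphate that all selenoproteins need. SEPHS2 had 38.3, 38.6 and 37.2 CPM in Vehicle and 48.7, 44.3 and 44.4 CPM in Aucklandiae 100 (0.27 ± 0.049, adjusted p = 9.6e-04). GPX2, the epithelial glutathione peroxidase, had 216, 204 and 205 CPM in Vehicle and 163, 169 and 197 CPM in Aucklandiae 100, and did not pass (−0.24 ± 0.083, adjusted p = 0.11). With the GC and length correction 4 selenoprotein genes fell and 1 rose, and none of 7 genes of selenoprotein synthesis passed in edgeR's test (0 also by DESeq2 and at an unadjusted p under 0.05).

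Of 23 targets of ATF4, the transcription factor of the amino acid and stress response, 4 rose and none fell, with a median of 0.08, where 1.08% of all genes tested rose and 0.967% fell. PHGDH (ENSG00000092621; chromosome 1, 119648411 to 119744226), the first enzyme of serine synthesis, had 58.1, 63.9 and 60.2 CPM in Vehicle and 69.9, 73.4 and 68.0 CPM in Aucklandiae 100. All extract libraries were above all Vehicle libraries, and the rise was 0.21 ± 0.043 (adjusted p = 0.0025). TRIB3, a stress-induced pseudokinase, had 58.5, 59.8 and 60.8 CPM in Vehicle and 69.8, 68.3 and 68.7 CPM in Aucklandiae 100 (0.21 ± 0.047, adjusted p = 0.0099), a call lost without replicate 1 of either group (adjusted p up to 0.064). DDIT4, an inhibitor of mTORC1, and SLC38A2, an amino acid transporter, rose by 0.15 ± 0.041 and 0.14 ± 0.035. DDIT4 did not pass with the GC and length correction (0.09, adjusted p = 0.3). Of the 6 fits that left out a library, PHGDH passed in 6, TRIB3 in 4, SLC38A2 in 3 and DDIT4 in 1. DDIT3, which encodes the stress factor CHOP, did not pass (0.17 ± 0.097, adjusted p = 0.42).

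The 250 bases before the RefSeq start sites (GRCh38.p14, printed 5′ to 3′ on the gene's strand) are given for PHGDH and TRIB3, which rose, and for GPX1 and SELENOW, which fell as examples of each direction. Capitals mark the GC box GGGCGG, the binding motif of SP1-like factors, on either strand. The coordinates are chr1:119711684-119711933 (+), chr20:381045-381294 (+), chr3:49358354-49358603 (−) and chr19:47778453-47778702 (+). Each window lies before the first listed start only and overlaps the annotated span of its own gene. Other start sites were not searched.
PHGDH: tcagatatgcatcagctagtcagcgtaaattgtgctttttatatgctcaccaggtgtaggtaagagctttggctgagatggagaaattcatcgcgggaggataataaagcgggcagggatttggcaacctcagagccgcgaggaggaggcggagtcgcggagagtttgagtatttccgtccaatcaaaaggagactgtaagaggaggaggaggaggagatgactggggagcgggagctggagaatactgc
TRIB3: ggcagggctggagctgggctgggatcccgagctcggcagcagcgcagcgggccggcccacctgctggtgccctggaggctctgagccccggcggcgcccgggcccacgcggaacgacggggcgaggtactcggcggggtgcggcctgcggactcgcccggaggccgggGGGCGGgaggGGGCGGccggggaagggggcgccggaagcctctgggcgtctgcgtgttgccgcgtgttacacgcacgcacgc
GPX1: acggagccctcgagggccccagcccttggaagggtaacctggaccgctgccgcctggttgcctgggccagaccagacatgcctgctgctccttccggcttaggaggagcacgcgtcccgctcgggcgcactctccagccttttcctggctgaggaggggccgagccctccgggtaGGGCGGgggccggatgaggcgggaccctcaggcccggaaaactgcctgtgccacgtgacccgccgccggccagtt
SELENOW: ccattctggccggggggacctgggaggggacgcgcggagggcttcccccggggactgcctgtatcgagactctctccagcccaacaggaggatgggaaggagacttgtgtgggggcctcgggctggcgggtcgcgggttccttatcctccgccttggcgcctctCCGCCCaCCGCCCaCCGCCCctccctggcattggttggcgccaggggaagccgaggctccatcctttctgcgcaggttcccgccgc
The windows of TRIB3, GPX1 and SELENOW held 2, 1 and 3 GC boxes and had a GC content of 78.8%, 70.8% and 70.4%, while that of PHGDH held none and had 51.2%. A GC box lay in 77.4% of 146 windows of genes that rose, in 73.6% of 125 of genes that fell, in 65.9% of 11836 of all genes tested and in 42.3% of all 27305 windows in the table. The median GC content of these windows had the same order, at 69.2%, 66%, 64.8% and 58%. The composite motif TGATGNAA, to which ATF4 binds with a C/EBP partner, was searched on both strands and was in none of the 4 windows. It lay in 0.685% of the windows of rises, 1.6% of those of falls and 1.39% of those of all genes tested. A match is a description of letters and does not show binding.

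The transcripts of genes that rose were richer in GC, while those of genes that fell were near the rest. The median GC content was 59.2% in the 187 genes that rose, 50.4% in those that fell and 50.0% in all genes tested, and median lengths were 987, 956 and 1064 bases. The libraries differed in the same property, at −0.0974 to −0.0488 in Vehicle and −0.0388 to 0.0411 in Aucklandiae 100 for GC-rich relative to GC-poor genes. In the fit corrected for GC content and length, 270 of 353 called genes passed and none changed sign.

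Genes of energy metabolism moved little. Of 24 nuclear genes of oxidative phosphorylation, 2 rose, none fell and 22 had a log2 fold change above 0 (median 0.09). Over all 17368 genes tested, 1.08% rose and 8778 were above 0. NDUFV1, a catalytic subunit of complex I, had 82.7, 83.0 and 85.3 CPM in Vehicle and 99.3, 99.2 and 95.3 CPM in Aucklandiae 100 (0.23 ± 0.043, adjusted p = 0.0018). CYC1, the cytochrome of complex III, had 146 CPM in each Vehicle library and 168, 175 and 162 CPM in Aucklandiae 100 (0.20 ± 0.042, adjusted p = 0.0038). Both passed in all 6 fits that left out a library. In the mean of the other 5 extracts at 100 µg/mL against the same Vehicle libraries, both also rose, by 0.17 each (adjusted p = 0.0021 and 0.0018, edgeR). The 24 genes had a median of 0.07 there, and 2 rose.

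None of the 13 genes encoded by mitochondrial DNA passed in edgeR's test (0 by DESeq2, 2 at an unadjusted p under 0.05), and all 13 had a log2 fold change below 0 (median −0.14). Among all 17368 genes tested, 2.04% passed and 2667 had an unadjusted p under 0.05. With only the 6 libraries in the fit, 5 of the 13 mitochondrial genes fell, and 3 had a value above 0 without Aucklandiae 100 replicate 3 and 1 without Vehicle replicate 3. Their summed share of each library was 8.34 to 8.71% in Vehicle and 7.57 to 7.91% in Aucklandiae 100. In glycolysis, SLC16A3, which exports lactate, and PFKL, the liver-type phosphofructokinase, rose by 0.22 ± 0.044 and 0.16 ± 0.038, while the pyruvate kinase gene PKM fell by 0.12 ± 0.029, from 3210 to 3324 CPM in Vehicle to 2958 to 3052 CPM. With the GC and length correction SLC16A3 and PFKL did not pass (adjusted p = 0.065 and 0.084).

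Of 23 early and feedback genes of MAPK signalling, JUNB and DUSP1 rose and FOSL1 fell, where 1.08% of all genes tested rose and 0.967% fell. JUNB, an AP-1 subunit, had 54.6, 60.5 and 60.5 CPM in Vehicle and 69.6, 72.7 and 62.4 CPM in Aucklandiae 100 (0.22 ± 0.060, adjusted p = 0.035). DUSP1, a phosphatase that switches off MAP kinases, had 110 to 112 CPM in Vehicle and 122 to 131 CPM in Aucklandiae 100 (0.18 ± 0.041, adjusted p = 0.012). The feedback phosphatase genes DUSP4 and DUSP5 were at 0.03 and 0.01 and did not pass (adjusted p = 0.67 and 0.96). JUNB and DUSP1 each missed the threshold without Vehicle replicate 1, Vehicle replicate 2 or Aucklandiae 100 replicate 2, and JUNB also without Aucklandiae 100 replicate 1.

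The AHR list holds targets of the aryl hydrocarbon receptor and the receptor gene AHR itself. Of its 7 genes tested, 2 fell and none rose, with a median of −0.14, where 0.967% of all genes tested fell and 1.08% rose. CYP1B1 (ENSG00000138061; chromosome 2, 38066973 to 38109902), which oxidises aromatic compounds and oestrogens, had 102, 97.7 and 99.8 CPM in Vehicle and 84.8, 88.2 and 81.0 CPM in Aucklandiae 100. The libraries did not overlap, and it fell by 0.24 ± 0.046 (adjusted p = 0.0023), in all 6 fits that left out a library. NFE2L2, which encodes NRF2 itself, went from 123 to 127 CPM to 113 to 116 CPM (−0.13 ± 0.034, adjusted p = 0.025), and missed the threshold without any 1 library (adjusted p from 0.051 to 0.11). CYP1A1, the best known target of the receptor, was at 0.880 to 1.5 CPM in Vehicle and 0.836 to 1.152 CPM in Aucklandiae 100 and did not pass (adjusted p = 0.58).

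None of 23 NRF2 targets and none of 13 aldo-keto reductase and carbonyl detoxification genes passed in edgeR's test, with medians of 0.00 and 0.02. At an unadjusted p under 0.05 there were 5 and 2, and DESeq2 called 1 and 0. Among all 17368 genes tested, 2.04% passed in edgeR's test and 2667 had an unadjusted p under 0.05. HMOX1, heme oxygenase 1, had 142, 146 and 146 CPM in Vehicle and 143, 148 and 139 CPM in Aucklandiae 100 (−0.01 ± 0.044, adjusted p = 0.93). The quinone reductase gene NQO1 was at 0.04 ± 0.040 and the thioredoxin reductase gene TXNRD1 at 0.03 ± 0.034. GCLM, a subunit of the enzyme that starts glutathione synthesis, had 229, 212 and 234 CPM in Vehicle and at least 239.7 CPM in each Aucklandiae 100 library (0.13 ± 0.039), and did not pass at an adjusted p of 0.075.

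Of 11 genes tested on the PPAR list, 1 passed, where 2.04% of all genes tested did. This was ANGPTL4 (ENSG00000167772; chromosome 19, 8363289 to 8374373), a secreted inhibitor of lipoprotein lipase and a target of PPAR receptors. It had 21.8, 20.96 and 20.5 CPM in Vehicle and 27.4, 28.2 and 26.5 CPM in Aucklandiae 100, without overlap (0.38 ± 0.063, adjusted p = 4.4e-04), and passed in all 6 fits that left out a library. PDK4, another PPAR target, had 33.7, 33.3 and 34.2 CPM in Vehicle and 27.9, 25.8 and 33.1 CPM in Aucklandiae 100 (−0.23 ± 0.109, adjusted p = 0.31). Of 18 endoplasmic reticulum chaperones and helpers, SDF2L1 (0.29 ± 0.081) and EDEM1 (0.18 ± 0.038), which act in folding and disposal of secretory proteins, rose and none fell, where 1.08% of all genes tested rose. SDF2L1 missed the threshold without any 1 of the 6 libraries (adjusted p from 0.082 to 0.16) and with the GC and length correction (adjusted p = 0.13). EDEM1 passed in 5 of the 6 fits that left out a library. Single members of other lists rose: the tetraspanin gene CD151 (0.16), the vitamin D hydroxylase gene CYP24A1 (0.13), the zinc finger gene KLF6 (0.17), the glycolytic regulator gene PFKFB3 (0.12), KRT7 (0.14) and TNFAIP2 (0.12). AMOTL2, an angiomotin of the Hippo pathway (−0.15), and the nucleolar protein gene NPM1 (−0.15) fell. Each of these 8 genes missed the threshold in at least 2 of the 6 fits that left out a library.

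No member passed among 17 heat shock genes, 26 genes of cholesterol synthesis and uptake, 21 mitosis genes, 23 DNA replication genes, 20 p53 targets, 22 autophagy and lysosome genes, 15 interferon-stimulated genes, 19 complement, fibrinogen and acute phase genes or 19 proteasome subunit genes in edgeR's test. Of all genes tested 2.04% passed, so 0 in lists of this size says little about their members. At an unadjusted p under 0.05 these lists held, in the same order, 2, 8, 7, 3, 5, 4, 0, 2 and 5 genes. The same held for 2667 of all 17368 genes tested. DESeq2 called 1 cholesterol gene and none in the other 8 lists. The proliferation marker MKI67 had 784, 788 and 826 CPM in Vehicle and 729, 715 and 792 CPM in Aucklandiae 100 (−0.10 ± 0.087, adjusted p = 0.63). The cell cycle inhibitor gene CDKN1A was at −0.03 ± 0.044 and MYC at −0.03 ± 0.037. C3, the central complement component, had 37.2, 37.4 and 37.4 CPM in Vehicle and 30.8, 31.2 and 32.6 CPM in Aucklandiae 100, without overlap, but did not pass (−0.24 ± 0.084, adjusted p = 0.11). ID1, a target of BMP signals, had 163 to 171 CPM in Vehicle and 199 to 207 CPM in Aucklandiae 100 (0.29 ± 0.082, adjusted p = 0.055).

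**Figure D3:**
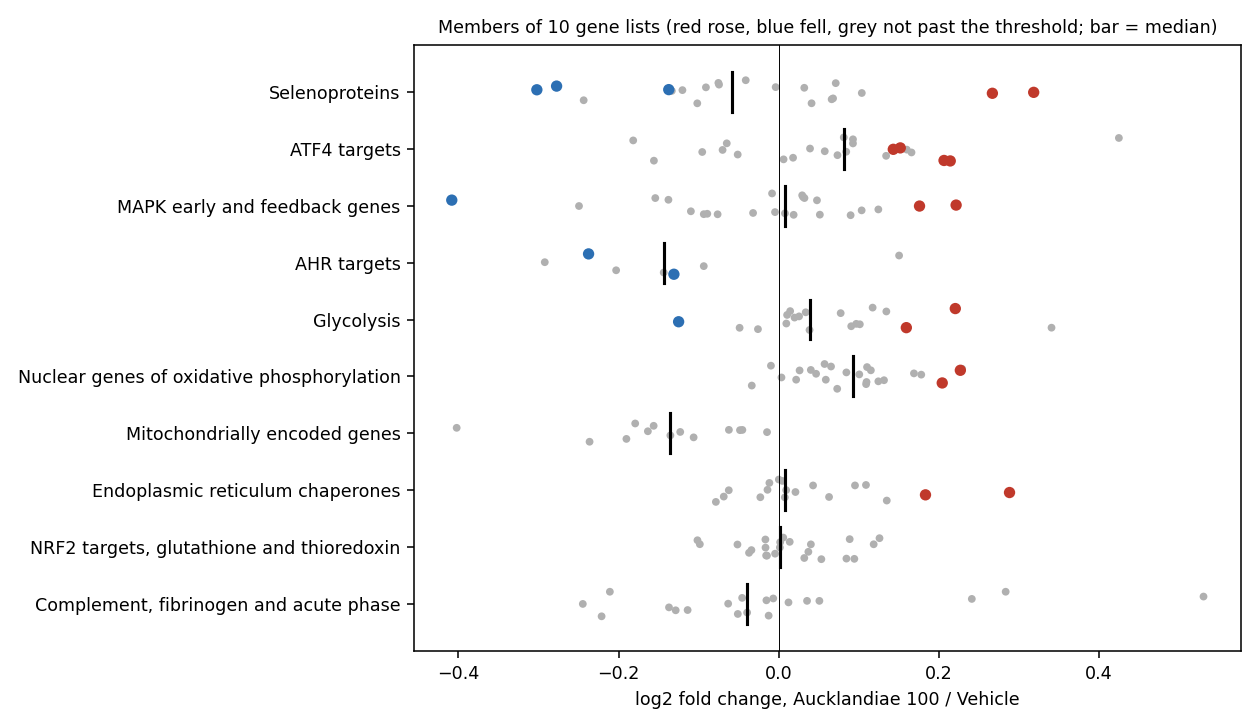
Log2 fold changes of Aucklandiae 100 over Vehicle for the members of 10 gene lists. Each point is a gene, red or blue where it rose or fell at an adjusted p under 0.05, and the black bar is the list's median. All 13 mitochondrially encoded genes lie below 0 without passing, and 22 of 24 nuclear oxidative phosphorylation genes lie above 0, of which 2 passed.

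The dose steps were examined inside the extract and its library set, with no Vehicle library. Between 20 and 100 µg/mL no gene passed in edgeR's test (0%), and DESeq2 called 1. An unadjusted p under 0.05 was held by 782 of 17368 genes, less than the share of 0.05 due when nothing differs. Without the filter on low counts, edgeR called 110. Between 100 and 500 µg/mL, 71 genes passed (0.409%), of which 12 rose (0.0691%) and 59 fell (0.34%). The count was 31, 28 and 42 without Aucklandiae 100 replicates 1, 2 and 3. Against the same Vehicle libraries, 520 genes passed at 20 µg/mL (2.99%; 1.38% rose and 1.61% fell), 355 at 100 µg/mL and 857 at 500 µg/mL (4.93%; 2.24% rose and 2.69% fell). The 187 genes that rose at 100 µg/mL had median log2 fold changes of 0.18, 0.22 and 0.19 at 20, 100 and 500 µg/mL, and the 168 that fell had −0.18, −0.18 and −0.19. These comparisons share their Vehicle libraries, and the genes were chosen at 100 µg/mL.

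HMOX1 rose between 100 and 500 µg/mL. It was at 138 ± 3.54 CPM (mean ± SD, n = 3) at 20 µg/mL, 143 ± 4.49 CPM at 100 and 188 ± 10.2 CPM at 500, and rose by 0.39 ± 0.044 between 100 and 500 (adjusted p = 1.8e-08). TGM2, which encodes the cross-linking enzyme transglutaminase 2, went from 562 ± 14.1 to 413 ± 14.3 CPM (−0.44 ± 0.037, adjusted p = 1e-12). SMOC1, a matrix protein that modulates BMP signals, went from 15.5 ± 0.337 to 10.3 ± 1.26 CPM (−0.59 ± 0.085), and IL11, a cytokine, from 23.7 ± 0.991 to 17.8 ± 0.142 CPM (−0.42 ± 0.062). None of these 4 genes had passed at 100 µg/mL against Vehicle. TM4SF4, a tetraspanin-like membrane protein (−0.41), and TAGLN, an actin-binding protein of contractile cells (−0.36), fell as well. The transporter gene SLC29A4 (0.33), the receptor gene GPRC5B (0.32) and TRIML2 (0.29) rose. CDH17 had fallen at 100 µg/mL and was higher again at 500, with 10.8 ± 0.998 CPM in Vehicle, 10.73 ± 1.04 at 20, 8.21 ± 1.17 at 100 and 11.1 ± 1.94 at 500 (0.43 ± 0.104 from 100 to 500, adjusted p = 0.035). That fall had passed in 2 of the 6 fits that left out a library. Both differences rest on the same 3 Aucklandiae 100 libraries, and CDH17 had been named for its fall there.

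The means of GPX1, SELENOW and ANGPTL4 lay in the order of dose, and of their single steps only that of ANGPTL4 from Vehicle to 20 µg/mL passed (0.24 ± 0.064, adjusted p = 0.023). GPX1 was at 80.6 ± 0.72 CPM in Vehicle, 72.9 ± 2.34 at 20 µg/mL, 66.5 ± 1.20 at 100 and 54.0 ± 1.39 at 500. Against Vehicle it passed at 100 and 500 µg/mL but not at 20 (adjusted p = 0.28 at 20, 0.028 at 100 and 3.9e-07 at 500), and the step from 100 to 500 narrowly missed the threshold (−0.30 ± 0.074, adjusted p = 0.0501). SELENOW stood at 54.4 ± 2.86, 48.2 ± 2.15, 44.0 ± 1.68 and 40.4 ± 1.61 CPM, and its steps from Vehicle to 20, from 20 to 100 and from 100 to 500 did not pass (adjusted p = 0.11, 1 and 0.82). ANGPTL4 went the other way, with 21.1 ± 0.67, 24.9 ± 1.18, 27.4 ± 0.852 and 29.8 ± 1.10 CPM, and its steps within the extract did not pass either (adjusted p = 1 and 0.79). CYP1B1 was lowest at 100 µg/mL (99.9 ± 2.29, 95.8 ± 7.33, 84.7 ± 3.57 and 92.8 ± 2.97 CPM), and FOSL1 was lowest at 20 µg/mL (30.9 ± 2.88, 21.9 ± 0.573, 23.3 ± 0.955 and 25.1 ± 1.71 CPM).

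**Figure D4:**
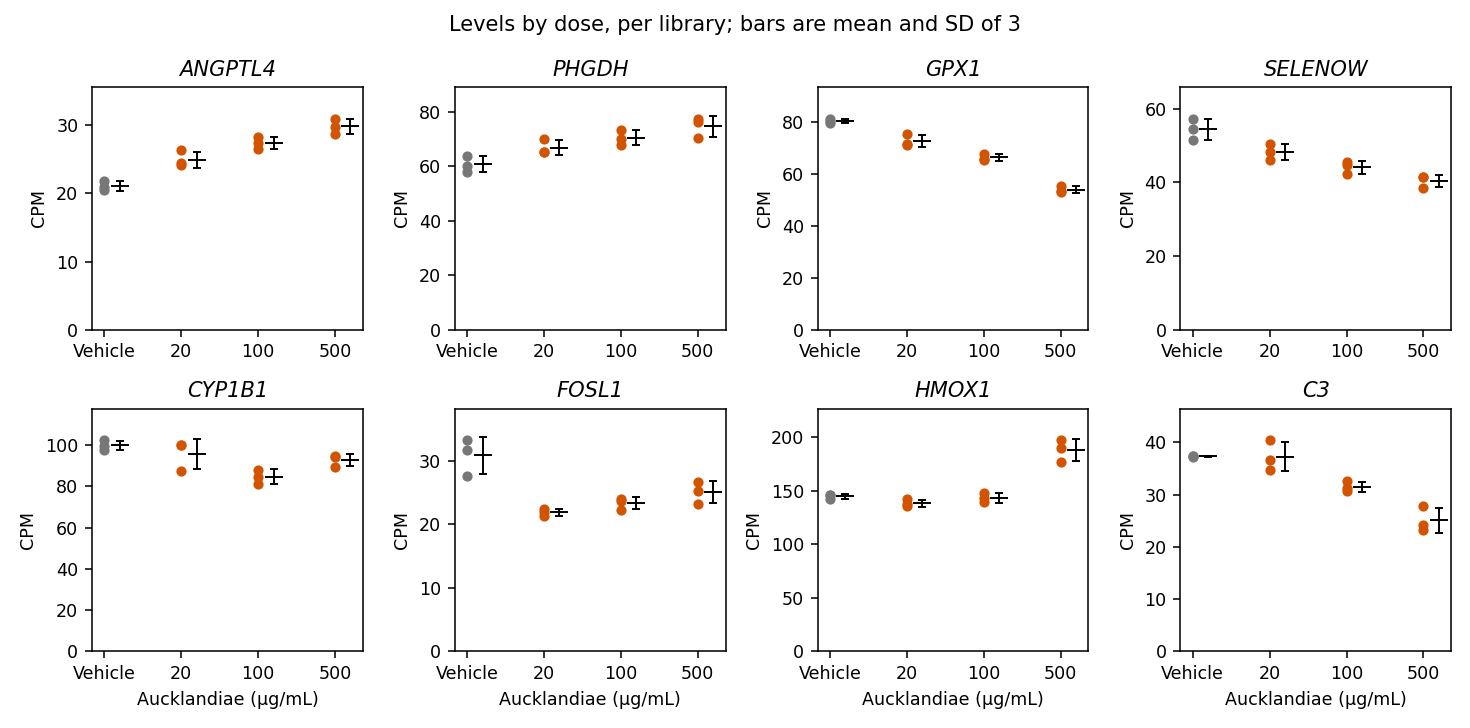
CPM of 8 genes in Vehicle (grey) and at 20, 100 and 500 µg/mL of the Aucklandiae extract (orange), on linear axes that start at 0. Points are libraries, and bars are the mean and SD of 3. GPX1 runs from 80.6 CPM in Vehicle to 54.0 CPM at 500 µg/mL, while HMOX1 is near 143 CPM up to 100 µg/mL and at 188 CPM at 500.

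Against the mean of the other 5 extracts at 100 µg/mL, which uses no Vehicle library, 20 genes passed (0.115%), 3 higher (0.0173%) and 17 lower (0.0979%) in Aucklandiae 100. Without Polygalae among them, 1 gene passed (0.00576%), the antisense RNA gene SPACA6-AS1 (−0.68 ± 0.130, adjusted p = 0.042), named after its value was seen. NEU1, the lysosomal sialidase, had 15.9, 14.3 and 15.3 CPM in Aucklandiae 100, 14.7 to 16.9 CPM in the 12 libraries of Liriopis, Schisandrae, Longan and Zizyphi, and 37.9 to 40.7 CPM in Polygalae. The membrane fusion gene STX3 (−0.36), HS1BP3 (−0.25), the folliculin partner gene FNIP1 (−0.24) and HMOX1 (−0.19) were lower as well.

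Of the 355 genes, ANGPTL4, CYP1B1 and NPIPB5 also passed against the other 5 extracts. ANGPTL4 had 26.5 to 28.2 CPM in Aucklandiae 100, 22.6 to 24.2 in Liriopis, 24.5 to 28.3 in Schisandrae, 23.7 to 24.5 in Longan, 25.0 to 28.6 in Zizyphi and 16.4 to 18.3 in Polygalae. It was higher by 0.23 ± 0.048 (adjusted p = 0.015), but its libraries overlapped those of Schisandrae and Zizyphi, and without Polygalae the difference was 0.13 ± 0.049 (adjusted p = 0.54). CYP1B1 had 81.0 to 88.2 CPM in Aucklandiae 100, 88.1 to 103 CPM in the 12 libraries of the 4 extracts other than Polygalae, and 109 to 118 CPM in Polygalae. Its highest library, 88.18 CPM, overlapped the lowest of Liriopis, 88.09 CPM. CYP1B1 was lower by 0.23 ± 0.037 (adjusted p = 7.5e-04), and by 0.18 ± 0.037 without Polygalae (adjusted p = 0.08). NPIPB5 was lower by 0.25 ± 0.055 (adjusted p = 0.041), with values in Longan, 44.4 to 52.2 CPM, that overlapped its 43.5 to 50.7 CPM. KRT4, an epithelial keratin that had not passed against Vehicle, was higher than in the other extracts by 0.19 ± 0.039 (adjusted p = 0.015).

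Against Vehicle, the mean of the other 5 extracts at 100 µg/mL changed 503 genes (2.9%), of which 296 rose (1.7%) and 207 fell (1.19%). The 187 rises of Aucklandiae 100 had a median of 0.15 in that comparison and the 168 falls −0.13, with the same Vehicle libraries on the other side. All 187 and all 168 had the same sign in that comparison, and 107 and 82 of them passed. The genes had been chosen against these same Vehicle libraries. TMEM160 was at 1.05 in Aucklandiae 100 and at 0.84 in the mean of the others, FOSL1 at −0.41 and −0.37, and RNF43 at −0.46 and −0.41. In the same order, TRIB3 was at 0.21 and 0.26, SEPHS2 at 0.27 and 0.20, SELENOO at 0.32 and 0.22, and DUSP1 at 0.18 and 0.16. PDF was at 0.61 and 0.25, and SELENOW at −0.30 and −0.13, but neither difference from the other extracts passed (adjusted p = 0.11 and 0.24). GPX1 was at −0.28 and −0.08 and PHGDH at 0.21 and 0.07, and these differences did not pass either (adjusted p = 0.24 and 0.055). The GPX1 libraries of Zizyphi, 62.49 to 66.39 CPM, overlapped the 65.56 to 67.82 CPM of Aucklandiae 100.

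**Figure D5:**
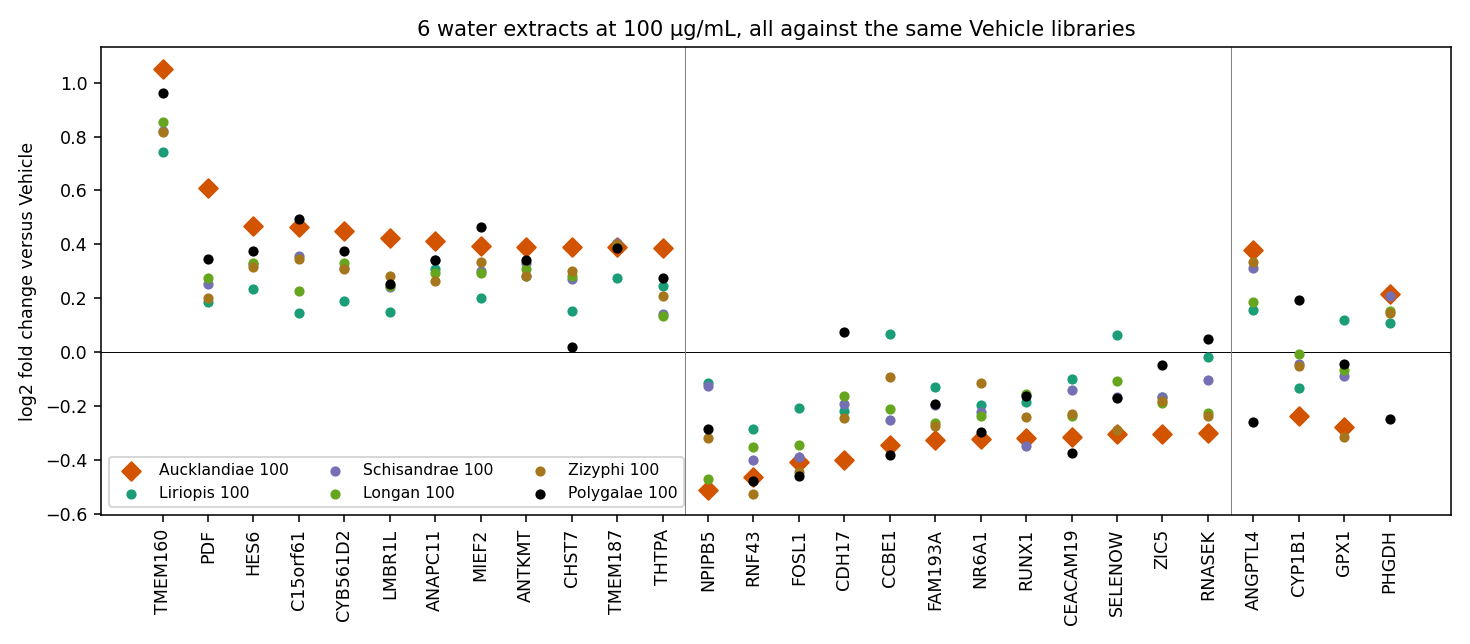
Log2 fold changes against Vehicle of Aucklandiae 100 (orange diamonds) and of the 5 other extracts at 100 µg/mL for the 12 largest named rises, the 12 largest falls, and ANGPTL4, CYP1B1, GPX1 and PHGDH. All 6 extracts are set against the same 3 Vehicle libraries, so their values are not independent. ANGPTL4 and CYP1B1 lie apart from Polygalae.

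Polygalae 100 comes from the same library set and dose. In that comparison 1290 genes passed (7.43%), 424 higher (2.44%) and 866 lower (4.99%) in Aucklandiae 100. The 5 largest named differences were lower in Aucklandiae 100: UAP1L1, of amino sugar metabolism (−1.73 ± 0.080), NEU1 (−1.37 ± 0.058), the dehydrogenase gene HSD17B14 (−1.34 ± 0.107), STX3 (−1.16 ± 0.082) and the sialic acid exporter gene SLC17A5 (−1.14 ± 0.089). IGF2, a growth factor (0.72 ± 0.122), the mucin gene MUC5AC (0.67 ± 0.173), the receptor kinase gene NTRK3 (0.65 ± 0.070), ANGPTL4 (0.64 ± 0.065) and IL11 (0.62 ± 0.063) were higher in Aucklandiae 100. Of the gene lists, 19 of 22 autophagy and lysosome genes and 22 of 26 cholesterol genes were lower in Aucklandiae 100 than in Polygalae 100.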

How the data were processed

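For each of 60675 Ensembl genes in 60 libraries, the deposited table gives RNA-seq expected counts, which the authors estimated with RSEM. STAR 2.7.3a, RSEM 1.3.3, Trim Galore 0.6.5 and FastQC 0.11.9 with the GRCh38 build are the tools in the submitters' processing notes. Per the labels' protocols, libraries came from a strand-specific kit, RNA with an integrity number above 7 and paired reads of 100 bases. No annotation release or strand setting is stated. Of the values, 10.7% were not whole, and they were rounded.

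Genes were filtered with filterByExpr over the 20 groups, which kept 17368, and TMM factors set the library sizes. A mean for each group was estimated in a robust quasi-likelihood model fitted to all 60 libraries in edgeR 4.0.16 (limma 3.58.1, R 4.3.3; at most 40 residual degrees of freedom), with two-sided tests and Benjamini-Hochberg adjustment over all genes tested. A gene rose or fell at an adjusted p under 0.05. Errors of log2 fold changes are standard errors, derived from the fold change and the F statistic. CPM used TMM-scaled depth, and log2 values of single libraries a prior count of 2. Library totals ranged from 17.7 to 30.6 M (median 24.6 M). Replicates of the 2 groups had Pearson correlations of 0.990 to 0.993, and no pair agreed within sampling noise. Simulated counts were drawn from the means and dispersions fitted to these data, with 1.25-, 1.5- or 2-fold changes in genes of at least 5 CPM only. Of these genes, 85.1% of those changed 1.25-fold and 97% of those changed 1.5-fold were recovered, and 12 of 199 calls were false. Smaller changes, such as the median log2 fold changes of 0.22 and −0.18 among the called genes, were not simulated.

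Named genes were the 12 largest rises and 12 largest falls among protein-coding genes with a symbol, at least 5 CPM and no overlap between groups, up to 5 in each direction in the other comparisons, up to 4 called members of each of 37 gene lists, and a panel of 27 genes. The members, lists and panel were chosen with earlier results of these data known, so lists are described and not tested. Positions and transcript GC content are those of GENCODE release 29 on GRCh38, and promoters are from RefSeq (GRCh38.p14), with the first listed start per gene. Promoters were found for 11836 of 17362 symbols tested. Alternatives were DESeq2 1.42.0, other scaling, filters and fits, offsets for GC content and length, and leaving out libraries.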

Additional observations from a re-analysis of the deposited data

How the results depend on the processing

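For Aucklandiae 100 versus Vehicle, no gene of the 355 changed sign under any alternative that held it. The count was 1016 with the 6 libraries alone and 698 without the filter on low counts. It was 15 when changes were tested against a log2 of 0.1, and 700 without Polygalae 20 replicate 1, left out after seeing the data because it stood apart. For Aucklandiae 100 versus Vehicle, genes that rose and Aucklandiae 100 versus Vehicle, genes that fell, these 4 settings gave in order 540 and 476, 326 and 372, 6 and 9, and 372 and 328. DESeq2 gave 492. Leaving out 1 library gave 97 to 253 genes (46 to 139 rises, 41 to 114 falls). The cause was not tested.

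For Aucklandiae 100 versus Vehicle, same-numbered libraries deviated from their group means with correlations of −0.004, 0.090 and 0.026. Those of differently numbered libraries ran from −0.086 to 0.059. With 3 libraries a group, these values cannot decide whether the numbers pair the samples. A replicate block gave 1242 genes in the 6 libraries (Aucklandiae 100 versus Vehicle, genes that rose, 646, and Aucklandiae 100 versus Vehicle, genes that fell, 596) and 363 in all 60, and with GC and length offsets 280 falls.

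For Aucklandiae 100 versus the other 5 extracts at 100 the count was 1 without Polygalae, 180 without the filter, 32 with DESeq2, 36 with the offsets, and 5 to 11 without 1 Aucklandiae 100 library. For Aucklandiae 100 versus Aucklandiae 20 it was 110 without the filter and 1 with DESeq2. For Aucklandiae 500 versus Aucklandiae 100 it was 123 with these groups alone, 189 without the filter, and 28 to 42 without 1 Aucklandiae 100 library. Fits that leave 2 libraries in a group assume that these vary like the rest. A gene that did not pass at this depth may still differ.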
